A study of Capra hircus with 24 samples.

Results

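RNA of milk somatic cells (MSC), which are shed into milk, was set against RNA of blood nuclear cells (PNCB, the nucleated cells left when red cells are lysed) of the same goats. These were the 8 MSC and 8 PNCB arrays of a series of 24, taken by their titles, with both breeds together. The 8 animals were healthy females in lactation 3, 4 of them Polish White Improved (PWI) goats, the other 4 Polish Fawn Improved (PFI), and goat numbers within a breed paired the sources. The remaining 8 arrays held RNA of milk fat globules (MFG) of these goats. Each sample was labelled with Cy5 and hybridised against Cy3-labelled RNA of blood nuclear cells pooled from 7 goats in lactation 4, 4 PWI and 3 PFI. Per the series' design text the goats of the pool were healthy and sampling followed the end of lactation, which may or may not cover the experimental samples. No treatment or allele was given in the labels. MSC were extracted with a lipid tissue kit and blood with a total RNA kit after red cell lysis, and the effects of kit and source cannot be told apart.

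Milk somatic cells are a mixture of leukocytes (macrophages, neutrophils and lymphocytes) and epithelial cells shed from the mammary gland, and their makeup shifts with udder health and stage of lactation. Blood nuclear cells are leukocytes, chiefly neutrophils and lymphocytes. Both are bulk samples, so a low value can mean fewer cells of a type or less RNA per cell, and these cannot be told apart. The array was designed for cattle, and a probe whose cattle sequence differs from that of the goat can read low in both sources. Probes carry cattle transcript accessions in the deposited files, without symbols, and a goat gene table held 0 of the 26748 accessions. Results are therefore given for probes and accessions, and the defining markers of leukocytes and mammary epithelium were not checked.

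Milk somatic cells differed from blood at close to every other measured probe, and with the processing used here mostly by less than 2-fold. Of 27407 probes tested, 13585 (49.6%) passed a limma adjusted p of 0.05, 6161 (22.5%) higher and 7424 (27.1%) lower in MSC. A 2-fold difference was reached by 1995 probes higher (7.28%) and 2109 lower (7.7%), and a 4-fold one by 543 higher (1.98%) and 417 lower (1.52%). The largest differences lay on the side of MSC. An 8-fold difference was reached by 199 probes higher and 95 lower, a 16-fold one by 85 and 21, and a 32-fold one by 35 and 5. The median log2 difference of all tested probes was -0.04, with quartiles at -0.36 and 0.32, and 85.0% of probes lay within 2-fold. The median standard error was 0.15 on the log2 scale. Of 13822 probes not called, 13591 (98.3%) had a 95% interval that stayed within 2-fold, and 231 had one that reached 2-fold. These intervals and the 85.0% hold for ratios with the normexp offset of 50, which draws the ratios of dim probes towards 0. They do not bound the difference under other processing. The number of 2-fold calls depended on the processing. It was 4512 higher and 6661 lower, of 15690 called, with the scanner software's own processed signals, where background correction and normalization both differ. Most calls there thus reached 2-fold. The number of 2-fold calls was 2056 higher and 5057 lower with each array centred on its median in place of loess. With a normexp offset of 16 it was 2908 and 2900.

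**Figure D1:**
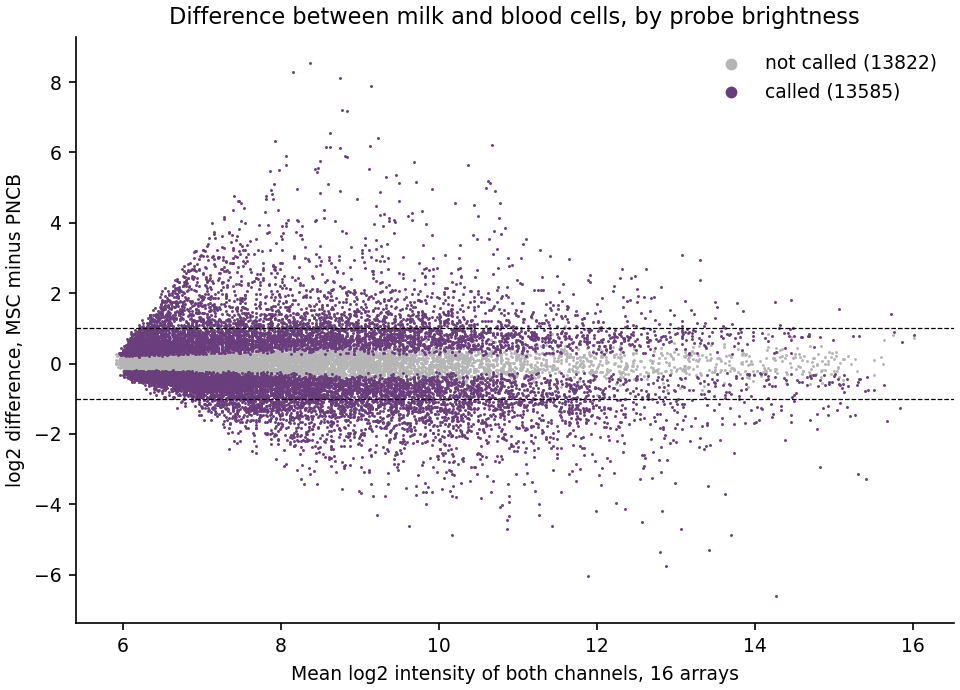
Log2 difference of MSC minus PNCB (vertical axis) against the mean log2 intensity of both channels over the 16 arrays (horizontal axis), 1 point per tested probe, with the 13585 called probes dark, the 13822 others grey and dashed lines at 2-fold. Most probes lie near 0 (quartiles -0.36 and 0.32), and the points reach farther above 0 than below it.

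Brightness went with the direction of the calls. Tested probes were divided into 4 equal bins by mean signal, and the percentage called went from 25.1 in the dimmest bin through 45.9 and 60.2 to 67.0 in the brightest. In the dimmest bin 100 probes were at least 2-fold higher in MSC and 0 lower, and in the brightest 742 were higher and 1340 lower. The median difference of all probes moved from 0.0012 in the dimmest bin to -0.13 in the brightest. Mean signal is not independent of direction, since the reference channel and the PNCB arrays both held blood RNA. A probe high in blood thus tends to fall in a brighter bin than one high in MSC alone. The part of signal strength in the counts was not tested.

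All 8 MSC arrays lay above all 8 PNCB arrays at 2584 probes (9.43%) and below all of them at 3308 (12.1%). The groups thus separated fully at fewer probes than were called, and more often with MSC on the lower side.

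The excess of very large differences on the MSC side lay partly among probes that blood hardly lit. Of the 543 probes at least 4-fold higher in MSC, 87 were well above background on no PNCB array and 356 on all 8. Of the 417 at least 4-fold lower, 5 were well above background on no MSC array and 384 on all 8. Of the 27411 probes that passed the filter, 19435 (70.9%) were well above background on all 16 arrays, and 10503 of the 19432 of these that were tested (54.0%) were called. There 1545 were at least 2-fold higher and 1933 lower, at least 4-fold 356 and 384, and at least 8-fold 111 and 88. The balance at 4-fold was thus the reverse of that over all tested probes.

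Some probes were well above background in only 1 source. On all 8 MSC arrays and on no PNCB array, 400 of the 27411 probes that passed the filter gave signal well above background. They were picked for this pattern, which favours a call in that direction, so no count of calls is given. For such a probe only a lower bound of the fold can be given, the Cy5 level in MSC against the higher of the dimmest signal well above background and the probe's own signal in PNCB. Channel levels were taken after loess and Aquantile, which scales average brightness alike across arrays. Without a dye swap they can carry dye bias. The bound had a median of at least 2.40-fold, was at least 2-fold at 252 probes and at least 10-fold at 45, and reached at least 300.2-fold. The opposite set, well above background on all 8 PNCB arrays and on no MSC array, was larger, with 712 probes, but dimmer. Their bound had a median of at least 1.25-fold and a maximum of at least 8.21-fold, and 45 probes reached 2-fold and 0 reached 10-fold. The MSC arrays were dimmer in Cy5 as a whole, with a median net intensity of 26.1 against 45.5 on PNCB arrays. The part of this in the sizes of the 2 sets was not tested. In milk fat globules of the same goats, 288 of the 400 MSC probes were above background on all 8 arrays and 3 on none. Of the 712 blood probes, 2 were above background on all 8 MFG arrays and 153 on none. These counts are not set beside those over all probes that passed the filter, so no trait of either set is read from them. The counts on none can be lowered by the MFG arrays of PWI goats 2 and 4. These had 84.6% and 75.3% of probes well above background in Cy5, against 44.1% to 51.5% on the other MFG arrays.

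The 2 probes named in each direction were the largest among those that met the naming rule. It asked for a called difference of at least 2-fold, the same sign in all 8 goats and Cy5 signal on every array of the brighter source to be well above background, with 1 probe per accession. The rule was met by 957 probes of 806 accessions higher in MSC and 980 probes of 871 accessions lower. Another 6 called probes of 3 accessions differed more than the first named on the higher side, up to a log2 difference of 8.53, and 3 of 3 accessions on the lower side, to -6.61. None of these 9 had a value on all 16 arrays.

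Probe A_73_P107731 (NM_174294) read far above the blood reference in every milk sample. Its log2 ratio to the reference ran from 6.01 through a median of 6.45 to 6.97 in MSC, and from -0.52 through -0.09 to 0.43 in PNCB. Each MSC array lay above each PNCB array by a wide margin. The means were 6.49 ± 0.35 and -0.05 ± 0.28 (SD, n = 8 each), a log2 difference of 6.54 (SE 0.16, limma adjusted p = 4.97e-18). The difference within a goat lay between 6.02 and 7.46. Only 1 PNCB array was well above background at this probe, so its level in blood is poorly measured and the size of the difference is uncertain. It was 6.16 with flagged spots left out after normalization, 7.76 with the processed signals, 8.38 with median centring and 9.16 with Cy5 alone. The other tested probe of the accession differed by 7.17 and was also called. In milk fat globules the probe read higher still, at 8.42 ± 0.37 (SD, n = 7).

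Probe A_73_114724 (NM_174299) was likewise high in every MSC sample but varied more between goats. Its log2 ratio ran from 5.10 through a median of 6.47 to 7.82 in MSC, and from -0.38 through 0.11 to 0.20 in PNCB. The groups did not overlap, and the MSC goats themselves spanned more than the whole range in blood. The means were 6.36 ± 0.98 and 0.03 ± 0.20 (SD, n = 8 each), a log2 difference of 6.32 (SE 0.48, limma adjusted p = 2.81e-10). No PNCB array was well above background there, so its level in blood was not measured. The Cy5 channel levels gave at least 145.7-fold by the bound described above, which is on another scale than the ratios and holds only for that way of scaling. The difference of the ratios corresponds to 80.0-fold, and over the alternatives the log2 difference lay between 5.78 and 10.5. It differed from the first probe in milk fat globules, where its log2 ratio ran from 0.23 through 1.60 to 4.79. On 7 of the 8 MFG arrays it was well above background, and no other probe of the accession was tested.

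Probe A_73_P441566 (NM_001014902) had the largest difference on the lower side among probes that met the naming rule. Its log2 ratio ran from -4.71 through a median of -4.50 to -3.86 in MSC, and from -0.01 through 0.95 to 1.82 in PNCB. The groups did not overlap, and the MSC values lay close together. The means were -4.43 ± 0.27 and 0.94 ± 0.57 (SD, n = 8 each), a log2 difference of -5.36 (41.2-fold lower in MSC; SE 0.17, limma adjusted p = 1.19e-16). The probe was well above background on all 16 arrays, so the fold is measured on both sides. The other tested probes of the accession were also called lower, but by -2.65 and -0.58, and the mean over its probes differed by -2.87. Over the alternatives on the probe itself, the largest difference was -6.05, with median centring.

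Probe A_73_P046111 (NM_001075234) ran from -4.56 through a median of -4.14 to -3.67 in MSC, and from -0.85 through 0.57 to 1.32 in PNCB (log2 ratio). The groups did not overlap, and PWI goat 2 held the lowest blood value. The log2 difference was -4.62 (24.6-fold lower, SE 0.21, limma adjusted p = 3.18e-14). Its other tested probe was called lower by -2.06, and the accession mean was -3.34. With median centring the probe itself differed by -5.42. For each of the 4 probes an exact two-sided sign-flip test over the 8 goats gave p = 0.0078. This is the smallest it can give and follows from the naming rule's demand for 1 sign.

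**Figure D2:**
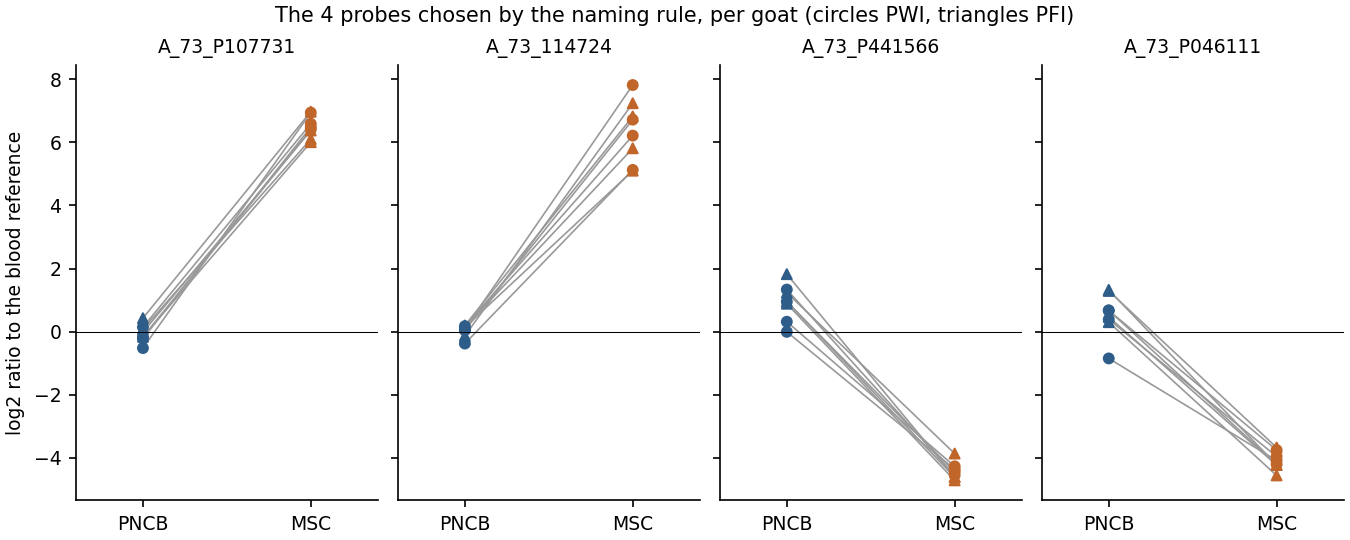
Log2 ratio to the reference (vertical axis) of the 4 named probes in each goat (circles PWI, triangles PFI), with PNCB and MSC of a goat joined by a line. At the first pair every MSC value is at or above 5.10 and every PNCB value at or below 0.43, and at the second pair every MSC value is at or below -3.67 and every PNCB value at or above -0.85.

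Probes of the same accession moved together more than probes of different accessions. Over 6484 accessions with at least 2 tested probes, the SD between probes of 1 accession was 0.43 (median 0.21) on the log2 scale, against 0.78 between accession means. Of 3107 accessions with a probe at least 2-fold different, 6 had such probes in both directions. All probes were at least 2-fold higher for 278 accessions with several probes, and all lower for 170. With 1 mean per accession, 8777 of 16830 accessions (52.2%) were called, 3909 higher (23.2%) and 4868 lower (28.9%), with 1169 at least 2-fold higher (6.95%) and 1181 lower (7.02%).

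At most of the probes with large differences it was MSC that stood away from the reference, which was itself blood. Among probes at least 2-fold higher, MSC stood at least 2-fold above the reference at 1825 (91.5%), and among those lower, at least 2-fold below it at 1781 (84.4%). PNCB stayed within 2-fold of the reference at 99.7% and 98.2% of these probes. The median absolute log2 ratio over the tested probes was 0.35 in MSC and 0.15 in PNCB. The reference channel itself served as a check. The same test on Cy3 alone, which held 1 RNA pool on every array, called 611 probes (2.23%). Of these, 504 were among the probes called in the ratios (49.6% of those tested) and 340 among the 4104 at least 2-fold different. Both are more than the share of such probes among all tested, so the reference channel was not free of shifts there. The cause was not tested. Over the 4104 probes at least 2-fold different, the median absolute difference was 0.07 in Cy3 and 1.64 in Cy5, and all 4104 kept their direction in Cy5 alone. They were chosen by the ratios of these same arrays, which favours that direction in Cy5, so this is a description and no check. The test on Cy5 alone called 14593 probes (53.2%).

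The differences also showed in the share of the signal that the probes took. The probes at least 4-fold higher in MSC took 14.5% ± 0.848 of the net Cy5 intensity of tested probes in MSC and 0.833% ± 0.063 in PNCB (SD, n = 8 each). The probes at least 4-fold lower took 1.06% ± 0.200 in MSC and 7.56% ± 0.574 in PNCB. These probes were chosen by the same contrast, so the shares are a description with no test. Over all probes that passed the filter, the 100 brightest took 23.6% ± 3.07 of the intensity in MSC and 18.9% ± 3.12 in PNCB. Their share was higher in MSC in 8 of 8 goats (exact two-sided sign-flip p = 0.0078, adjusted p = 0.0104 over 4 tests). For the 10 brightest the shares were 4.92% ± 0.94 and 3.06% ± 0.73, again higher in 8 of 8 goats with the same exact p. Fewer probes were lit on the MSC arrays. The share of the 43653 probes with Cy5 well above background was 56.3% ± 3.66 in MSC, from 51.2 to 60.9, and 62.9% ± 2.55 in PNCB, from 57.5 to 65.6 (SD, n = 8 each). It was lower in MSC in 8 of 8 goats (exact sign-flip p = 0.0078, adjusted p = 0.0104), though the ranges overlapped. The MSC arrays were also dimmer in Cy5 as a whole. Their median net Cy5 intensity was 26.1 ± 5.82, against 45.5 ± 10.8 on PNCB arrays (SD, n = 8 each). The part of this in the shares of lit and of brightest probes was not tested. In Cy3 the share was 44.4% ± 2.29 on MSC and 38.8% ± 11.5 on PNCB arrays (exact sign-flip p = 0.289), higher in MSC in 6 of 8 goats.

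**Figure D3:**
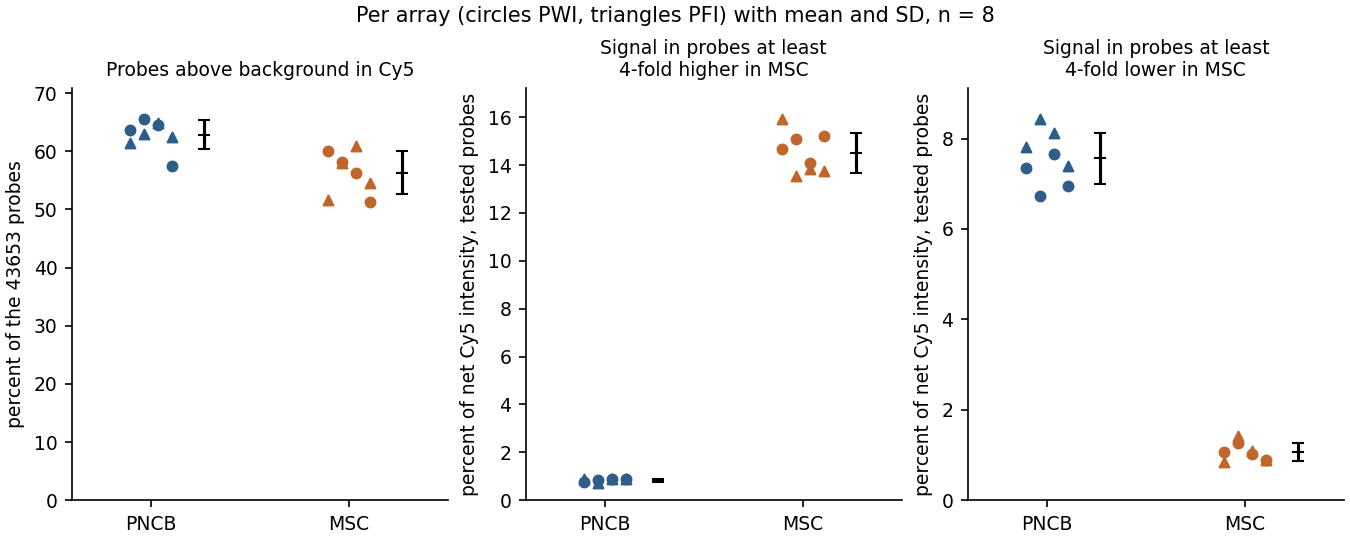
Values of each array by source (circles PWI, triangles PFI, bars mean and SD, n = 8): percent of the 43653 probes well above background in Cy5, and percent of the net Cy5 intensity of tested probes taken by the probes at least 4-fold higher and at least 4-fold lower in MSC. In the second panel the MSC arrays lie between 13.5% and 15.9% and the PNCB arrays between 0.721% and 0.878%, and in the third the order is reversed, at 0.848% to 1.42% and 6.72% to 8.44%.

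The PNCB arrays of PWI goats 3 and 4 stood apart in quality. Their share of probes well above background in Cy3 was 20.4% and 19.9%, against 43.2% to 46.5% on the other PNCB arrays. On them 8.43% and 21.1% of their spots carried an outlier flag, and their spike-in slopes (the response to RNA added in known amounts) were 0.645 and 0.567, against 0.760 to 0.803 on the other PNCB arrays. Without these and 1 MFG array whose spike-in correlation was also out of the software's range, 14907 probes were called, 2062 at least 2-fold higher and 2148 lower.

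Variation between goats was spread differently in the 2 sources. It was compared over 9704 probes that had an unflagged value well above background on all 16 arrays. The median SD between goats of a breed was 0.23 in MSC and 0.32 in PNCB, and 34.1% of probes varied more in MSC. Within PFI goats, which leaves out both PNCB arrays of low quality, it was 0.26 in MSC and 0.22 in PNCB, so the order turned. MSC arrays correlated with each other at r = 0.75 to 0.96 across probes, and PNCB arrays at -0.06 to 0.80. The MSC arrays of PWI goat 4 and PFI goat 1 correlated at 0.96, but with PFI goats 2 and 3 at 0.75 to 0.80. Both were dim, with a median net Cy5 intensity of 18.5 and 20, against 23 to 35 on the other MSC arrays. All correlations are values across probes, which are not replicates, and PNCB log2 ratios lie near 0 because the reference was blood. Their SD across probes was 0.25 for the PNCB mean and 0.90 for the MSC mean. The PNCB arrays of PWI goat 4, PFI goat 1 and PFI goat 2 correlated at 0.69 or above among themselves, while no other PNCB pair passed 0.52. Against the MSC arrays these 3 correlated at 0.13 to 0.39 and the other 5 at 0.04 to 0.19. These 3 were also the dimmest PNCB arrays, with a median net Cy5 intensity of 27.5, 35.5 and 36.5, against 48 to 57.5 on the other 5. The part of brightness in their likeness was not tested. Without these 3 arrays 13079 probes were called, 2198 at least 2-fold higher and 2336 lower.

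**Figure D4:**
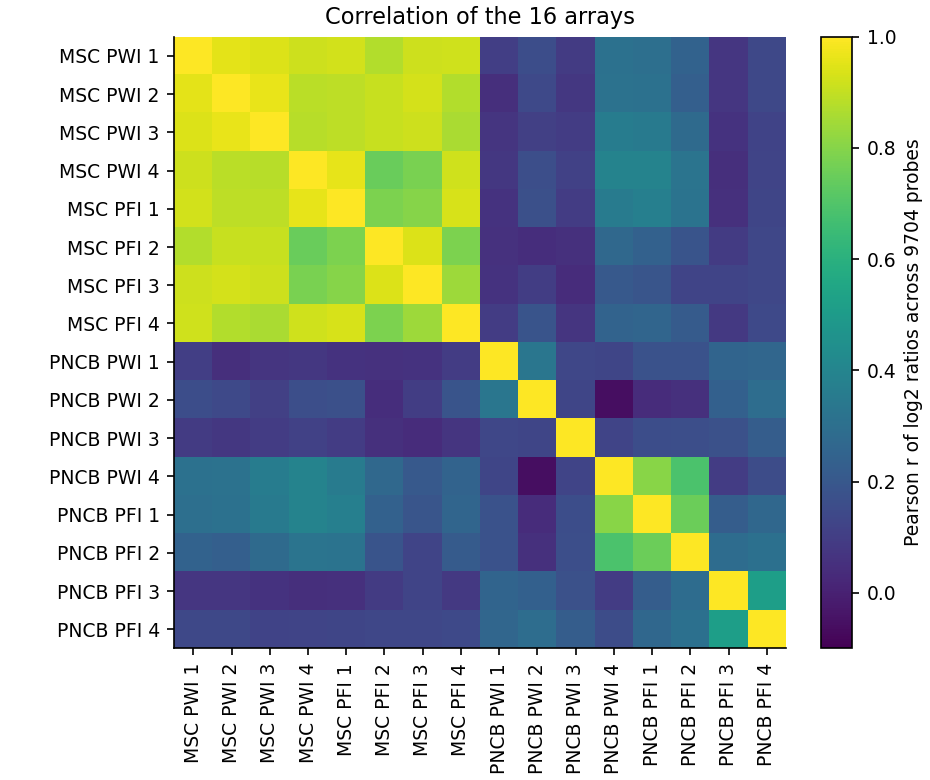
Pearson r of the log2 ratios across 9704 probes for each pair of the 16 arrays, ordered by source, breed and goat, with colour giving r. MSC pairs lie between 0.75 and 0.96 and PNCB pairs between -0.06 and 0.80, with PWI goat 4, PFI goat 1 and PFI goat 2 forming a block among the PNCB arrays.

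Probes far higher in milk cells also varied more between milk samples. The median SD among the 8 MSC goats was 0.20 over the tested probes, 0.55 over the 543 probes at least 4-fold higher and 0.26 over the 417 lower. Among PNCB goats these medians were 0.30, 0.31 and 0.46, so probes far higher in blood likewise varied more between blood samples. The part of signal strength in these medians was not tested. Of 710 tested probes that spanned at least 4-fold among MSC goats, 167 belonged to the 543 and 7 to the 417. Among PNCB goats 870 probes spanned 4-fold, and 265 without PWI goats 3 and 4.

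Each goat was also read against calls made without it. Probes called at least 2-fold on 7 goats were looked up in the goat left out, whose arrays had no part in the fit that called them. The filter on dim probes was set once over all 24 arrays, so the goat left out still took part in it. Of the higher probes, between 95.4% (1484 of 1555 in PWI goat 4) and 99.9% (1889 of 1891 in PWI goat 2) were higher in MSC in that goat. Of the lower probes, between 97.0% (1993 of 2055 in PFI goat 2) and 99.7% were lower. Over all probes, the share higher in MSC in a single goat was 41.6% (PWI goat 3) to 49.5% (PFI goat 1). Over every called probe of any size the share with the same direction was 86.4% to 97.0%, lowest in PWI goat 4. The median log2 difference of the higher probes was 1.46 to 1.51 over the 7 goats and 1.35 to 1.54 in the goat left out. For the lower probes it was -1.40 to -1.38 and -1.55 to -1.23. The MFG arrays and the reference pool were shared by all of these fits.

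**Figure D5:**
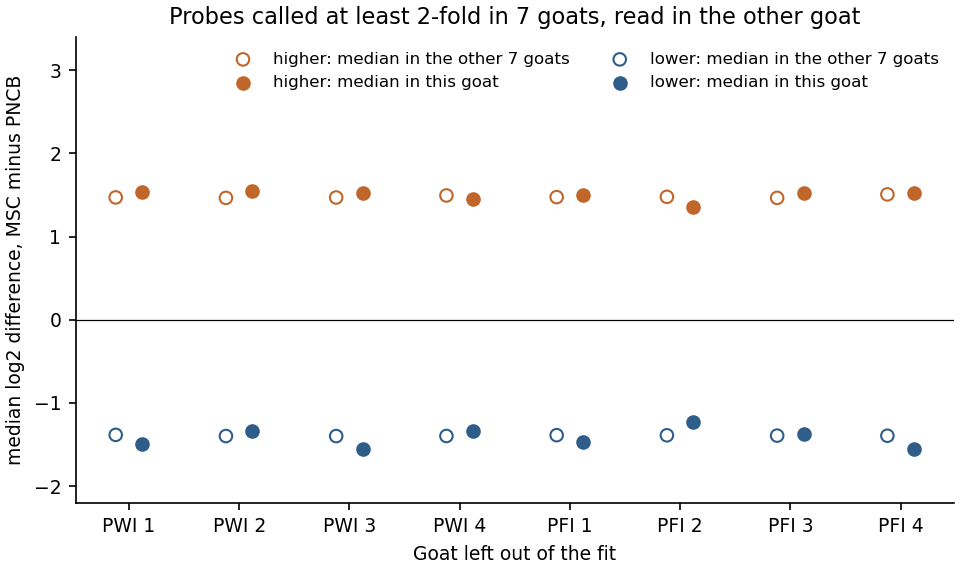
Median log2 difference (vertical axis) of the probes called at least 2-fold higher or lower on 7 goats, in those 7 goats (open circles) and in the goat left out of the fit (filled circles), for each goat on the horizontal axis. The filled circles lie between 1.35 and 1.54 for higher probes and between -1.55 and -1.23 for lower probes.

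The breeds were also read against each other, on arrays that do not overlap apart from the shared filter. Of 4297 probes called at least 2-fold in PWI goats alone, 4287 (99.8%) had the same direction in PFI goats and 3226 (75.1%) were still at least 2-fold different, with a median log2 difference in the called direction of 1.43 in PWI and 1.37 in PFI. Of 4059 called in PFI goats alone, 4052 (99.8%) had the same direction in PWI goats and 3272 (80.6%) were still 2-fold different, with medians of 1.44 and 1.43. Over all probes the median log2 difference was -0.07 within PWI goats and -0.007 within PFI goats. The difference profiles of single goats correlated with each other at 0.61 to 0.91 across the 9704 probes, and 63.4% of the sum of squares of the 16 arrays lay between the sources.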

How the data were processed

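Each array held 45220 spots, of which 43803 were not controls and made up 43653 probes. Per the file headers, the deposited scanner files hold the intensity of each spot and of its surroundings, for Cy5 and Cy3, not normalized, 0 or 1 flags per spot (outlier, well above background, saturated) as other values, and processed signals of the software. The software was Agilent Feature Extraction 10.7.3.1, per the submitters' processing notes and the file headers. Values of the authors' deposited table are log10 of Cy5 over Cy3 and equal the software's own log ratio (largest difference 0). The probe design follows the cattle genome, per the file headers. No spot was saturated. Depth does not apply to arrays, whose number limits the precision.

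Values were computed with R 4.3.3 and limma 3.58.1. Outlier-flagged spots were left out, background was corrected by normexp (offset 50), ratios were normalized by loess within arrays (control spots at weight 0), and spots of a probe were averaged. Tests took probes that, in 1 or more of the 6 groups of source and breed, had Cy5 well above background on each of the 4 arrays. This left 27411 probes, 4 of which had no value in a needed group. The test was lmFit and eBayes on 24 arrays with 6 group means, each source averaging both breeds, with Benjamini-Hochberg adjustment. The method was tested on simulated data.

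Numbers pair the sources because titles give each goat's number within its breed. As a check, deviations of the 2 arrays of a goat from their group means correlated at -0.07 to 0.37 and above 0.1 in 5 of 8 goats. The limma p-values of the main test rest on the spread between goats within a group of source and breed, pooled over all groups, MFG included. They do not use the pairing. Only the sign-flip tests and the alternative with goat as a replicate block use it. All p-values come from these 8 goats. Each group of source and breed lay on its own slide, so a source spanned 2 slides and no slide held both MSC and PNCB. The effects of slide and source therefore cannot be told apart. MSC and PNCB arrays were scanned on the same day. A goat's number is also its array's position on the slide.

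The arrays, gene lists and rules were chosen with earlier results of these data known. As no symbols were available, the gene lists and marker lists of the design were not run. Its rule then names 2 probes per direction, by the requirements given with them, the brightest probe standing for its accession. Alternatives covered the background correction, normalization, deposited values, flags, filter, samples, blocks, array weights and each goat left out.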

Additional observations from a re-analysis of the deposited data

Results flagged for a closer look

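Of 37 sets of 8 values examined, 6 held 1 value that stood apart from the other 7, where chance gives about 1 in 20, or about 1.8. The MSC array of PWI goat 4 had 3.52% of its spots flagged as outliers, against at most 2.61% on the other MSC arrays. The PNCB array of PWI goat 4 had 21.1%, against at most 8.43% on the other PNCB arrays. The spike-in correlation of the MSC array of PFI goat 4 was 0.909, and the nearest other MSC array had 0.930. At probe A_73_P046111 the PNCB sample of PWI goat 2 had a log2 ratio of -0.85, and the nearest other blood sample 0.30. In PWI goat 3 the median log2 difference of all probes between MSC and PNCB was -0.20, and the nearest other goat had -0.04. The SD of its differences across probes was 1.07, against at most 0.912 in the other goats. The PNCB array of this goat is one of those with a low spike-in slope, and the part of that slope in these values was not tested.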

How the results depend on the processing

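The count of called probes was 13585 and lay between 7729 and 17289 over 24 alternatives, within 1.5 times the reported count in 23. The exception was the fit within PWI goats alone, with 7729 calls, 3233 higher and 4496 lower. Within PFI goats alone there were 10846. With goat as a replicate block on the 16 arrays the count was 13090, with 2000 at least 2-fold higher and 2105 lower, and the block changed no call of a named probe and no count by over 1.5 times. Median centring in place of loess gave 11145 lower calls, 5057 of them at least 2-fold. The software's processed signals gave 4512 higher and 6661 lower at least 2-fold, and the deposited log ratios gave 4476 higher and 6651 lower. The cause of these changes was not tested. The median of all probes was -0.17 with median centring and -0.18 with processed signals, against -0.04. Higher probes made up 45.4% of the calls, 35.5% with median centring and 40.6% with processed signals. Leaving out each goat in turn gave 12159 to 13325 calls. The fit without the arrays of low spike-in correlation and that without the 3 similar PNCB arrays were added after seeing the data. All 4 named probes kept direction and call in each alternative that gave them a value, with A_73_114724 at 5.78 to 10.5 and a largest limma adjusted p of 4.98e-05. The gene list alternatives were not run, as the files give no symbols. With 8 goats, 1 kit per source, no slide shared by the sources and no dye swap, kit, slide and source cannot be told apart. Folds of probes near background in 1 source are poorly measured.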

Other observations

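The balance of direction was not the same over the kinds of accession on the array. Of 19365 tested probes with a RefSeq mRNA accession (prefix NM), 50.4% were called, 1549 probes at least 2-fold higher and 1401 lower in MSC. Of 3289 probes with an Ensembl cattle transcript accession, 42.1% were called, with 156 higher and 195 lower by that measure. Of 2491 probes with a TC identifier, 51.9% were called, with 139 higher and 289 lower. No test was made between these classes.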
